A study of Mus musculus with 6 samples.

Results

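The mouse Hox genes are homeobox genes of the A, B, C and D clusters, and 37 of them were described across 3 arrays of untreated embryonic stem (ES) cells and 3 arrays of cells given vitamin C. A member was a gene named alone on its probe set whose symbol is Hox, a letter from a to d and a number. These 37 genes were among 19938 genes measured, and each had 1 probe set. The Hoxa cluster gave 10 members and the Hoxb, Hoxc and Hoxd clusters 9 each. Hoxb8 shared a probe set with Hoxb7 and so is not a member.

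Hox genes encode transcription factors that give positions along the body axis their identity. Genes with the same number in different clusters are paralogues, copies that arose when an ancestral cluster was duplicated, and low numbers act towards the head and high numbers towards the tail and the tips of the limbs. Polycomb complexes hold the clusters silent in ES cells under histone methylation, and retinoic acid and Wnt signals open them in order during differentiation. Hox proteins bind DNA together with homeodomain partners of the TALE class, such as Pbx and Meis proteins.

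All 6 cultures were Oct4-GiP mouse ES cells on 0.1% gelatin in N2B27 medium with LIF (1000 U/ml), the MEK inhibitor PD0325901 (1 μM) and the GSK3β inhibitor CHIR99021 (3 μM). The treated cultures also received vitamin C as L-ascorbic acid 2-phosphate at 200 μg/ml for 72 hours, and the untreated cultures did not. The design text calls the arrays biological triplicates of 1 line, so the results hold for that line. The title of the series concerns Tet-dependent DNA demethylation under vitamin C, and these arrays measured transcripts.

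The values are log2 signals of 1 probe set each, so they compare arrays and not genes. Differences are vitamin C minus untreated, tested with limma over all 19938 genes and called at a Benjamini-Hochberg adjusted p under 0.05. Every adjusted p below is from that fit unless another setting is named. Of all genes 2623 were called, 1147 higher and 1476 lower (866 and 1830 once array medians were made equal). Arrays of one group correlated at 0.995 to 0.996 across genes and arrays of different groups at 0.989 to 0.990. All 10 ES cell markers examined, Pou5f1, Nanog and Sox2 among them, lay above the upper quartile of every array. In RNA of a whole culture, more cells of a type and more RNA per cell cannot be told apart.

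Few Hox genes passed the test for a difference with vitamin C. Of the 37, 1 rose (Hoxb5), none fell and 36 did not pass. That is 2.70% of the members, against 13.2% of all genes (5.75% higher and 7.40% lower). At an unadjusted p under 0.05, 5 of the 37 differed, or 13.5%, against 29.0% of all genes. The median difference of the members was 0.04, beside 0.01 over all genes, and their median size, sign aside, was 0.13 in both. With vitamin C 21 members had a difference above 0 and 16 below it (18 above 0 with equal array medians). With 1 array left out, 13 of the 37 changed sign at least once: Hoxa4, Hoxa5, Hoxa9, Hoxb6, Hoxb13, Hoxc5, Hoxc8, Hoxc9, Hoxc11, Hoxd4, Hoxd9, Hoxd11 and Hoxd12.

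The members were dim, and dim genes were called less often on these arrays. With all genes split by mean signal into 4 bins of equal size, 4 of the 37 lay in the lowest bin, 25 in the next, 8 in the one above and none in the highest. Of all genes in those bins, from low to high, 3.37%, 8.43%, 19.0% and 21.9% were called. The mean signals of the members ran from 4.35 to 6.94, and 24 of the 37 were below the median of all values, 5.56. Whether a dim member lay above background was not tested, because no detection calls were used.

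The spread between arrays was somewhat larger for the members than for all genes, and close to that of genes of like signal. The median standard error (SE) was 0.097 for the members and 0.084 over all genes, on the log2 scale. For all genes in the 4 bins of signal, from low to high, it was 0.107, 0.095, 0.082 and 0.067. For 35 of the 37, the 95% confidence interval of the difference stayed inside a 1.5-fold change in either direction. The intervals of Hoxb5 (0.19 to 0.78) and Hoxc12 (-0.69 to 0.01) reached past that size. These intervals bound the difference in measured signal, and for a probe set at background they would say nothing of the transcript.

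**Figure D1:**
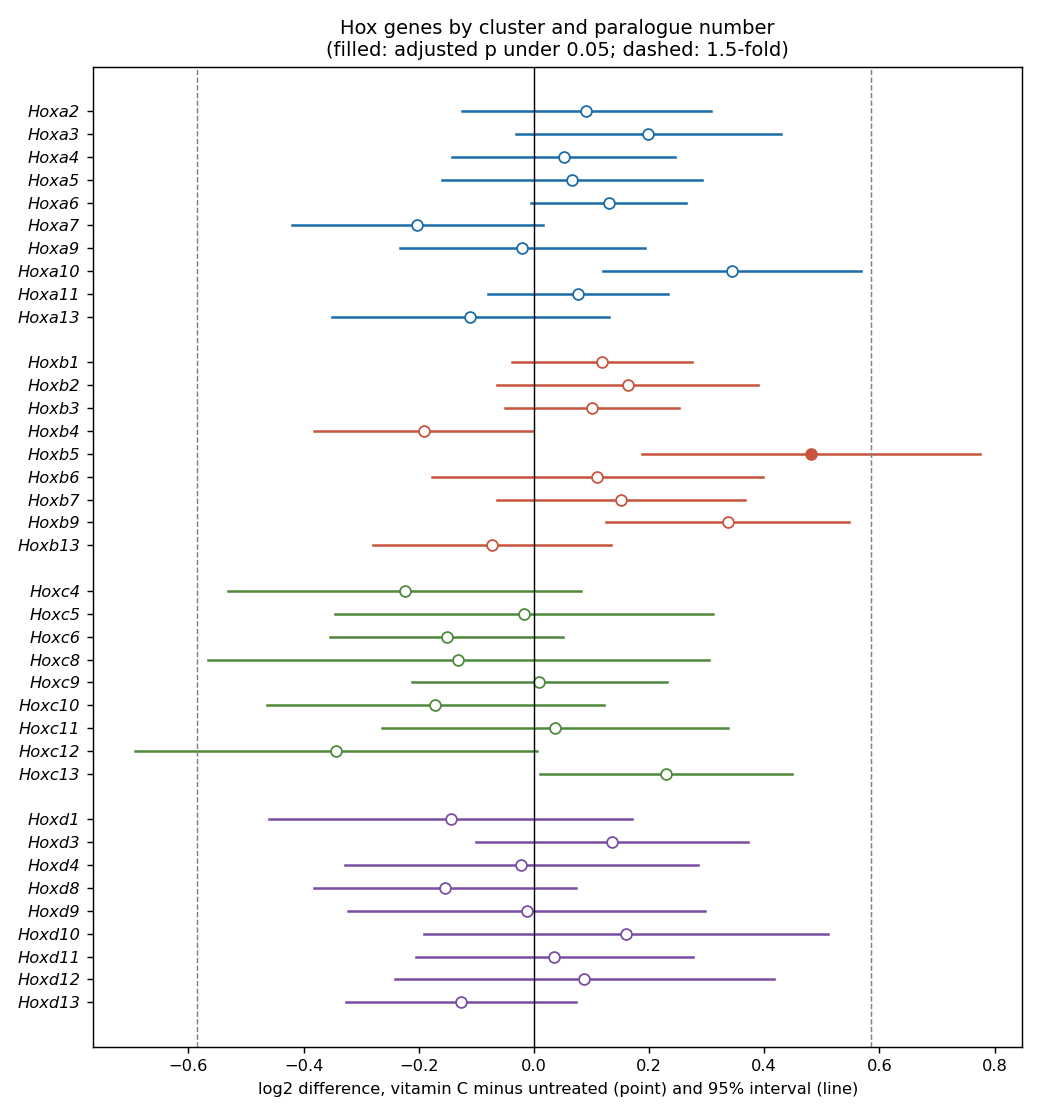
Log2 difference (vitamin C minus untreated, horizontal axis) of each of the 37 Hox genes, ordered by cluster and number, with its 95% confidence interval. Hoxb5 is the only filled point, and its interval and that of Hoxc12 cross the dashed lines at 1.5-fold.

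Hoxb5, a central gene of its cluster that acts in neural crest and blood progenitors, was the called member. Its log2 signal was 4.79, 4.42 and 4.35 on the untreated arrays and 4.89, 5.13 and 4.99 with vitamin C. All treated arrays were above all untreated ones, but untreated replicate 1 and vitamin C replicate 1 lay closer together than the SD of either group. The mean went from 4.52 ± 0.24 to 5.0 ± 0.12 (SD, n = 3 each), a difference of 0.48 ± 0.13 (SE, adjusted p = 0.0460 by limma) or 1.4-fold. The call held without untreated replicate 1 (adjusted p = 0.0169) and was lost without untreated replicate 2 or 3 (0.128 and 0.125) or vitamin C replicate 1, 2 or 3 (0.0791, 0.120 and 0.107) in limma fits with fewer arrays. It was also lost with equal array medians (0.0561) and when every probe set was tested (0.0510).

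Hoxb9 and Hoxa10 had the next largest positive differences and did not pass. Hoxb9 takes part in patterning the ribs and, with its paralogues, the mammary gland. Its signal was 5.90, 5.91 and 6.11 untreated and 6.44, 6.24 and 6.24 with vitamin C, with no overlap. The difference was 0.34 ± 0.09 (SE, adjusted p = 0.050 by limma, which is just above the threshold before rounding). Without untreated replicate 3 it was called (adjusted p = 0.0456 by limma). Hoxa10, which acts in lumbar vertebrae and the uterus, was at 4.72, 4.89 and 4.55 untreated and at 4.99, 5.12 and 5.09 with vitamin C. These arrays did not overlap either, and the difference was 0.34 ± 0.10 (SE, adjusted p = 0.0566 by limma). Without untreated replicate 2 Hoxa10 was called (adjusted p = 0.0361 by limma).

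Of the 37 members, 8 had arrays that did not overlap between groups, 6 higher with vitamin C and 2 lower. That is 21.6%, against 35.0% of all genes (16.8% higher and 18.2% lower). In the 4 bins of signal, from low to high, 14.4%, 25.4%, 43.3% and 56.9% of all genes did not overlap. The remaining 3 of the 6 higher ones were Hoxa3, Hoxa6 and Hoxb3. Hoxa3, needed for the thymus and parathyroid, was at 4.30, 4.34 and 4.12 untreated and at 4.38, 4.34 and 4.63 with vitamin C, so its groups came within rounding of each other. Hoxa6 was at 5.22, 5.25 and 5.24 untreated and at 5.33, 5.40 and 5.36 with vitamin C. This was the tightest separation of the members, a difference of 0.13 ± 0.06 (SE, adjusted p = 0.186 by limma). Hoxb3, a hindbrain gene, differed by 0.10 ± 0.06 (SE, adjusted p = 0.353 by limma), and Hoxa3 by 0.20 ± 0.10 (SE, adjusted p = 0.231 by limma).

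The pair with lower, non-overlapping arrays were Hoxa7 and Hoxc6, both genes of the trunk. Hoxa7 was at 5.93, 6.09 and 5.92 untreated and at 5.61, 5.82 and 5.90 with vitamin C, a difference of -0.20 ± 0.09 (SE, adjusted p = 0.202 by limma). Hoxc6 was at 5.79, 5.79 and 6.05 untreated and at 5.67, 5.76 and 5.74 with vitamin C, a difference of -0.15 ± 0.09 (SE, adjusted p = 0.297 by limma). With 1 array left out the differences ran from -0.26 to -0.12 for Hoxa7 and from -0.20 to -0.07 for Hoxc6. In both genes the gap between the groups was smaller than the spread inside them.

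**Figure D2:**
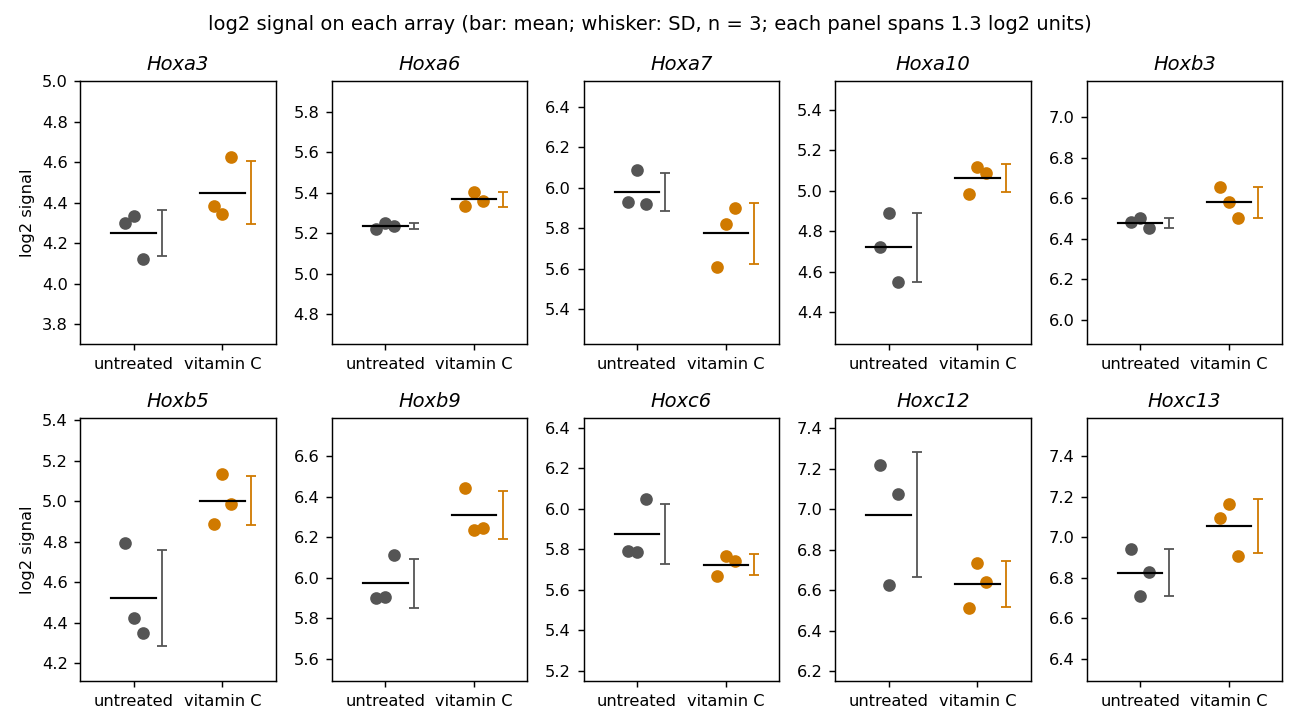
Log2 signal (vertical axis) on each untreated and vitamin C array for the 8 Hox genes whose arrays do not overlap and for Hoxc12 and Hoxc13, with the mean (bar) and SD (whisker, n = 3). Hoxb5, Hoxb9 and Hoxa10 stand apart most widely, and the Hoxc12 and Hoxc13 arrays overlap.

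The neighbours Hoxc12 and Hoxc13 at the posterior end of the Hoxc cluster differed in opposite directions, neither passing. Hoxc12 was at 7.22, 6.63 and 7.07 untreated and at 6.51, 6.74 and 6.64 with vitamin C. Untreated replicate 2 lay among the treated arrays, and the difference was -0.34 ± 0.15 (SE, adjusted p = 0.179 by limma). Without untreated replicate 2 the difference was -0.52 and was called (adjusted p = 0.0274 by limma). Hoxc13, a gene of hair and nails, was at 6.94, 6.71 and 6.83 untreated and at 7.09, 7.16 and 6.91 with vitamin C. Its groups overlapped, and the difference was 0.23 ± 0.09 (SE, adjusted p = 0.155 by limma).

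By cluster, the Hoxa and Hoxb genes leaned higher and the Hoxc genes lower, within differences that did not pass apart from Hoxb5. In the Hoxa cluster 7 of 10 differences were above 0 (median 0.07), and in the Hoxb cluster 7 of 9 (median 0.12), where 52.8% of all genes were above 0. In the Hoxc cluster 3 of 9 were above 0 (median -0.13), and in the Hoxd cluster 4 of 9 (median -0.01). With equal array medians these counts were 7, 7, 1 and 3, and the medians 0.03, 0.08, -0.17 and -0.05. The median of the Hoxc cluster was -0.03 without untreated replicate 1, -0.07 without untreated replicate 3, -0.08 without vitamin C replicate 2 and -0.04 without vitamin C replicate 3. That of the Hoxd cluster changed sign, from -0.06 without untreated replicate 1 to 0.03 without untreated replicate 2. The clusters were not tested against each other.

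Among the clusters, Hoxb was the one whose summed signal did not overlap between the groups. Of all genes taken singly, 35.0% did not overlap, and the sums were not tested. On the linear scale the 9 probe sets summed to 404.7 to 414.6 on untreated arrays and to 443.5 to 465.7 with vitamin C, a ratio of means of 1.102, and with equal array medians to 408.8 to 424.7 and 438.8 to 452.3. Without Hoxb5 and Hoxb9 the sums were 315.3 to 333.2 and 335.0 to 348.9, a ratio of 1.050, and with equal array medians these overlapped (318.5 to 341.3 and 332.5 to 338.9). Within the cluster Hoxb4, known for expanding blood stem cells, went the other way, with -0.19 ± 0.08 (SE, adjusted p = 0.170 by limma). Hoxb2 and Hoxb7 differed by 0.16 and 0.15, and Hoxb1, Hoxb6 and Hoxb13 by 0.12, 0.11 and -0.07. Hoxb2 was at 0.07 without untreated replicate 3 and Hoxb7 at 0.07 without vitamin C replicate 2. Hoxb6 was at -0.02 without untreated replicate 3 and Hoxb13 at 0.02 without vitamin C replicate 2. The probe set shared by Hoxb8 and Hoxb7 averaged 4.45 ± 0.12 untreated and 4.68 ± 0.27 with vitamin C (SD, n = 3 each).

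In the Hoxd cluster the differences were small and moved with single arrays. The lowest was Hoxd8 (-0.15 ± 0.10 SE) and the highest Hoxd10, a gene of lumbar motor neurons (0.16 ± 0.15 SE), with overlapping arrays for all 9. Hoxd10 was at 0.26 without untreated replicate 3 and at 0.03 without untreated replicate 2 or vitamin C replicate 1, and Hoxd8 was at -0.05 without untreated replicate 3. Hoxd1 differed by -0.14 (-0.02 without untreated replicate 2, -0.03 without vitamin C replicate 1 and -0.22 without vitamin C replicate 2). Hoxd13, which patterns the digits, differed by -0.13, and by -0.05 without untreated replicate 2. In the Hoxc cluster Hoxc4 and Hoxc10 differed by -0.22 and -0.17, but Hoxc4 by -0.10 without vitamin C replicate 1, and Hoxc10 by -0.04 without untreated replicate 2 and -0.10 without vitamin C replicate 2. Hoxa4, the Hoxa member with the highest mean signal, differed by 0.05 ± 0.08 (SE), which became -0.0071 without untreated replicate 1. Hoxb3 and Hoxc13 above and Hoxd13 held that place in the other clusters.

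By paralogue number, Hoxb5 in group 5 was the only call, and the groups themselves were not tested. Of all genes 52.8% had a difference above 0. Of the 7 members in groups 1 to 3, which pattern the hindbrain and neck, 6 were above 0 (median 0.12), all but Hoxd1. Hoxa3, Hoxb3 and Hoxd3 of group 3 were 0.20, 0.10 and 0.14 higher. In groups 4 to 8, which pattern the neck and trunk, 6 of 14 were above 0 (median -0.02), and paralogues of one number went apart. In group 4 Hoxa4 was above 0 and Hoxb4, Hoxc4 and Hoxd4 below, with Hoxa4 and Hoxd4 among those that changed sign. In groups 9 to 13, which pattern the lower trunk, limbs and tail, 9 of 16 were above 0 (median 0.02). Beside the Hoxb9 difference of 0.34, its paralogues Hoxa9, Hoxc9 and Hoxd9 were at -0.02, 0.01 and -0.01, and these 3 changed sign with 1 array left out. The difference between them and Hoxb9 was not tested. In group 13 Hoxa13, Hoxb13 and Hoxd13 were below 0 and Hoxc13 above.

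**Figure D3:**
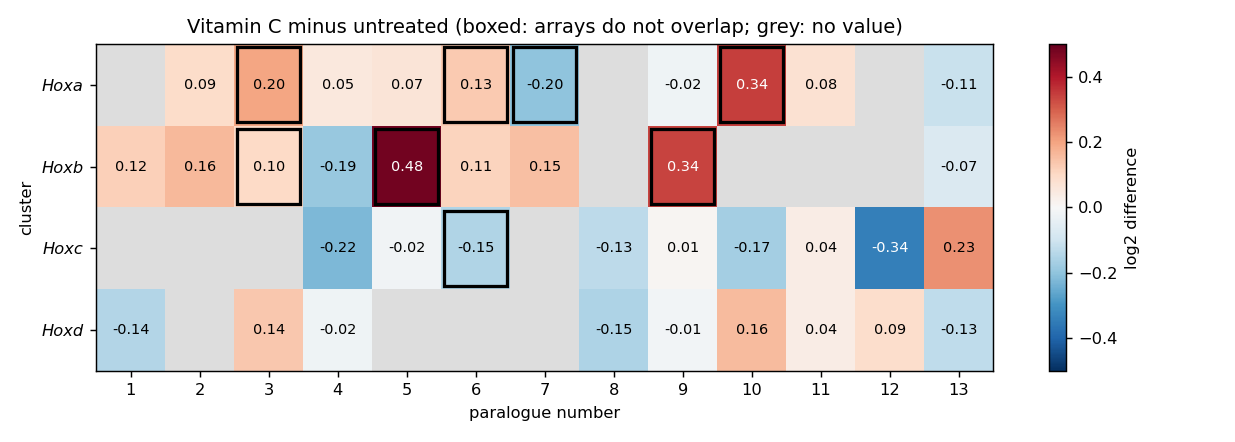
Log2 difference of each Hox gene (colour and number) by cluster (rows) and paralogue number (columns), with genes whose arrays do not overlap boxed and grey where no value was measured. Rows A and B hold mostly positive values and row C mostly negative ones, and no column is uniformly strong.

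Promoter sequences were examined because DNA methylation in mammals lies mainly on CG dinucleotides. The RefSeq promoter table (GRCm38.p6) held 21 of the 37 members with 23 start sites, and the 250 bases before each were used. The 21 were 9 Hoxa, 2 Hoxb, 1 Hoxc and 9 Hoxd genes, so the counts describe mainly the Hoxa and Hoxd clusters and leave out Hoxb5, Hoxb9, Hoxb3 and Hoxc6. They held 2 to 35 CG (median 13), against a median of 6 over all 32851 windows. A window with at least 1 CG, a motif that reads the same on both strands, made up 100% of the Hox windows and 92.13% of all, and one with 10 or more made up 60.9% and 37.8%. The windows of Hoxa10 and Hoxa6, higher with vitamin C, and of Hoxa7, lower, whose arrays did not overlap, are shown with CG in capitals. They lie on chromosome 6, minus strand, at chr6:52234940-52235189 and chr6:52240855-52241104 (both Hoxa10), chr6:52208673-52208922 (Hoxa6) and chr6:52218574-52218823 (Hoxa7).
Hoxa10, start nearer Hoxa9: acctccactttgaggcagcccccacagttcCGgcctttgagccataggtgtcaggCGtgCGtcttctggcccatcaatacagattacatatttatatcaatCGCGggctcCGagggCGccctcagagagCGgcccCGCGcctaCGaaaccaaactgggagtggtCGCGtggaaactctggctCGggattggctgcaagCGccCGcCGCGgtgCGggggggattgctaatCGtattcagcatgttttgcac
Hoxa10, start nearer Hoxa11: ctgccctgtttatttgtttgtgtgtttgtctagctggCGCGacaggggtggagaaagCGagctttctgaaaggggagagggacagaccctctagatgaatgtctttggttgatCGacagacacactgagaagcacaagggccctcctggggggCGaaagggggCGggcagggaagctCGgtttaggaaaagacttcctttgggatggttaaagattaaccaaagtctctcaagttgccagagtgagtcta
Hoxa6: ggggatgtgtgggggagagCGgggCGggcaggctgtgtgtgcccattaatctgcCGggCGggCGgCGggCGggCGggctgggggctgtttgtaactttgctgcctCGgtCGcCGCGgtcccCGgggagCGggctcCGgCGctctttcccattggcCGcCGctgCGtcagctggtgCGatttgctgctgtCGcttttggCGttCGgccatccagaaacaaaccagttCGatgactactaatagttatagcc
Hoxa7: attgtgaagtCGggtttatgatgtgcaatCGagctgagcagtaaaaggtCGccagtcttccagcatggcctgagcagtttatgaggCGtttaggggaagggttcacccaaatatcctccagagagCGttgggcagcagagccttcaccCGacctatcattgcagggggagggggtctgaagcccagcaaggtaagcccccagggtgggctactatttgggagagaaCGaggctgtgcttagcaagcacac
They held 20, 7, 24 and 7 CG, and the window of Hoxa3, whose arrays did not overlap either, held 18 (not shown). Hoxa13, with the most CG (35), differed by -0.11, and Hoxa9, with 3, by -0.02. Expression arrays do not measure methylation, and whether these sites were methylated was not analysed here.

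The clusters also carry non-coding RNAs, and 10 of 17 listed were measured, of which 1 rose, none fell and 9 did not pass (10%, against 13.2% of all genes). Their median signal was 4.48, in the lowest bin of signal, where 3.37% of all genes were called. Hottip, a long non-coding RNA at the posterior end of the Hoxa cluster that helps to activate posterior Hoxa genes, went from 3.65 ± 0.13 to 4.05 ± 0.16 (SD, n = 3 each). The difference was 0.41 ± 0.10 (SE, adjusted p = 0.0425 by limma), on a signal below the lower quartile of all values, 4.01, in untreated cells. Its call held without vitamin C replicate 2 and was lost without untreated replicate 1, 2 or 3 (adjusted p = 0.0631, 0.0931 and 0.118 by limma) or vitamin C replicate 1 or 3 (0.117 and 0.113), and with equal array medians (0.0523). Its neighbour Hoxa13 differed by -0.11 ± 0.10 (SE).

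The miR-10 and miR-196 genes between the Hox genes were duplicated with the clusters, and miR-196 is known to cleave Hoxb8 mRNA. The mature 5p sequences of these and of miR-615 (RefSeq, GRCm38.p6) are shown with the seed, bases 2 to 8, in capitals. The miR-10 forms share 1 seed, the miR-196 forms another, and miR-615 of the Hoxc cluster has its own.
miR-10a-5p: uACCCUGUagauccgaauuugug
miR-10b-5p: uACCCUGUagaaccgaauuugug
miR-196a-5p: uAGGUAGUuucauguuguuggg
miR-196b-5p: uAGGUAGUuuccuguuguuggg
miR-615-5p: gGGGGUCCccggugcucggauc
Counted from the 5′ end, miR-10a and miR-10b differ by U12A and miR-196a and miR-196b by A12C, outside the seed. The miR-10a-5p sequence lies at chr11:96317186-96317208 and that of miR-10b-5p at chr2:74726074-74726096, both on the plus strand. Mir196a-1 and Mir196a-2 give the same miR-196a-5p, which lies at chr11:96265187-96265208 and chr15:102973365-102973386, on the plus strand. The miR-196b-5p sequence of Mir196b lies at chr6:52230129-52230150 on the minus strand. The miR-615-5p sequence lies at chr15:103014926-103014947 on the plus strand. The arrays measure the host transcripts and not the mature forms. Mir10a (Hoxb cluster, 0.07 ± 0.10 SE) and Mir10b (Hoxd cluster, -0.11 ± 0.10 SE) had very dim signals, with untreated means of 2.27 and 2.20. Mir196a-1, Mir196a-2 and Mir196b of the Hoxb, Hoxc and Hoxa clusters differed by 0.18, 0.24 and 0.06. Mir615 had the largest difference of these microRNA genes, 0.27 ± 0.14 (SE, adjusted p = 0.268 by limma), with overlapping arrays, and none of the 6 passed.

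Cofactors of Hox proteins changed in both directions. Of 10 measured TALE-class genes 2 rose, 1 fell and 7 did not pass (30%, against 13.2% of all genes, with a median difference of 0.08). Their median signal was 6.82, in a bin of signal where 19.0% of all genes were called. Meis2, a partner of Hox and Pbx proteins, went from 7.14 ± 0.06 to 7.84 ± 0.10 (SD, n = 3 each), a rise of 0.70 ± 0.08 (SE, adjusted p = 0.00193 by limma). Pknox2, a relative of Meis2, rose by 0.51 ± 0.07 (SE, adjusted p = 0.00405 by limma). Pbx3 fell by 0.44 ± 0.09 (SE, adjusted p = 0.0226 by limma), a call lost without untreated replicate 1, 2 or 3 (0.0557, 0.0722 and 0.0583). Meis1 differed by -0.02, and Pbx2 and Pbx4 by -0.06 and -0.14. The rises of Meis2 and Pknox2 held in all 13 alternative settings tried.

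Homeobox genes related to the Hox family were also examined. None of the 8 ParaHox and Evx genes passed limma's test, and none had an unadjusted p under 0.05, beside 13.2% and 29.0% of all genes. Over 8 genes, a count of 0 calls is near the first of those shares. Cdx2, a caudal gene that activates Hox genes, differed by 0.02 ± 0.10 (SE), and Evx1 and Evx2, which sit at the ends of the Hoxa and Hoxd clusters, by 0.11 and 0.14. Of 46 other homeobox genes of the same (ANTP) class, 4 rose, 1 fell and 41 did not pass (10.9%, against 13.2% of all genes, with a median difference of 0.09). The median signals of these 46 and of the 8 above were 5.80 and 5.29, in a bin of signal where 8.43% of all genes were called. Nkx2-9, a gene of the ventral neural tube, led with 1.00 ± 0.14 (SE, adjusted p = 0.00542 by limma). The engrailed genes En2 (0.59) and En1 (0.41), of the midbrain and hindbrain boundary, and Nkx6-2 (0.31) rose, and Nkx1-2 fell by 0.37. With 1 array left out, the call of En1 held only without vitamin C replicate 3, that of En2 only without untreated replicate 2, and that of Nkx1-2 only without untreated replicate 3 or vitamin C replicate 2.

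Genes that flank the clusters moved in both directions. Of 20 measured, 2 rose, 2 fell and 16 did not pass (20%, against 13.2% of all genes, with a median difference of -0.06). Their median signal was 7.98, in the highest bin of signal, where 21.9% of all genes were called. Calcoco2, an autophagy receptor gene beside the Hoxb cluster, rose by 0.50 ± 0.07 (SE, adjusted p = 0.00481 by limma), and Snf8 near it, a gene of endosomal sorting, by 0.25 ± 0.07 (SE, adjusted p = 0.0469 by limma). Hibadh and Snx10 beside the Hoxa cluster, genes of valine breakdown and of endosomes, fell by 0.39 and 0.35. The call of Snf8 was lost without any 1 of the 6 arrays (adjusted p = 0.0757 to 0.130 by limma) and with equal array medians (0.0872). With 1 array left out, that of Snx10 held only without untreated replicate 2 or vitamin C replicate 2 (0.0501 to 0.0555 otherwise). Averaging the probe sets of Hibadh gave -0.11 (adjusted p = 0.467 by limma), so its probe sets disagree.

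Polycomb and trithorax genes hold Hox genes silent or active. Of 33 measured, 3 rose, 2 fell and 28 did not pass (15.2%, against 13.2% of all genes, with a median difference of 0.06). Their median signal was 7.85, in the highest bin of signal, where 21.9% of all genes were called. Ezh1, which encodes a histone H3K27 methyltransferase, went from 7.99 ± 0.08 to 7.23 ± 0.09 (SD, n = 3 each), a fall of 0.76 ± 0.07 (SE, adjusted p = 0.00124 by limma). Pcgf1, a subunit of a variant PRC1 complex, fell by 0.75 ± 0.12 (SE, adjusted p = 0.00869 by limma). Wdr5, a subunit of trithorax-type methyltransferase complexes that also binds Hottip, rose by 0.36 ± 0.06 (SE, adjusted p = 0.00923 by limma). Suz12 and Mtf2 of PRC2 rose by 0.23 each, and the call of Suz12 was lost without any 1 array (adjusted p = 0.0748 to 0.113 by limma) and with equal array medians (0.0845). Of 12 retinoic acid response genes 1 fell, none rose and 11 did not pass (8.33%). This was Crabp1, a retinoic acid binding protein gene, with -0.28 ± 0.06 (SE, adjusted p = 0.0247 by limma), a call that held only without untreated replicate 1 when 1 array was left out.

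**Figure D4:**
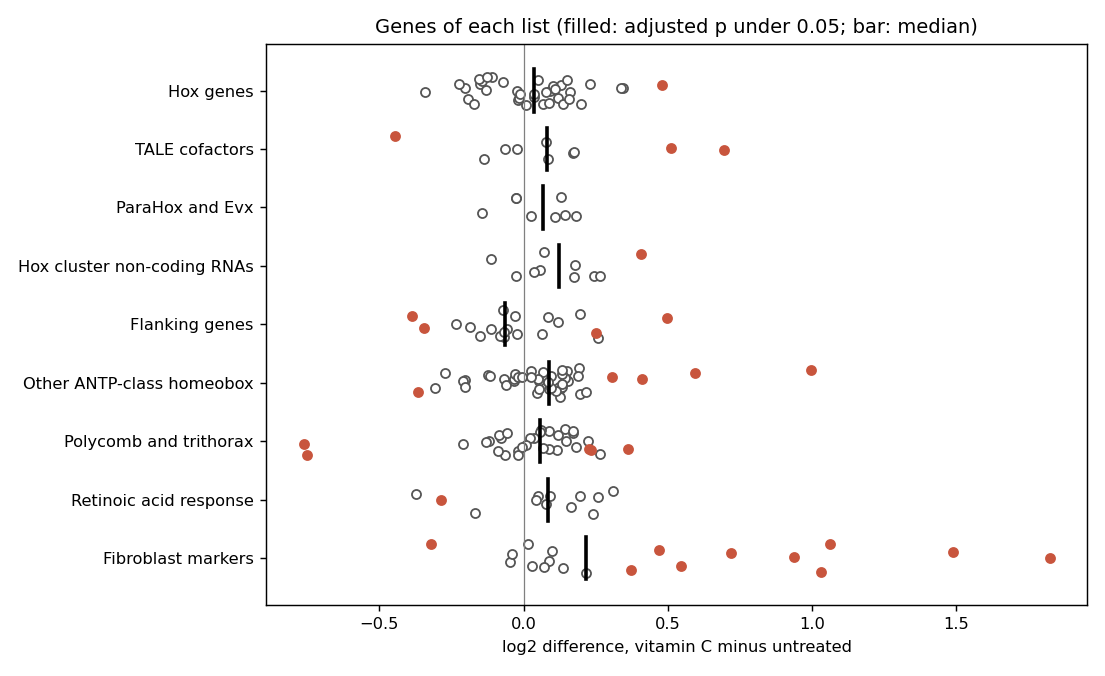
Log2 difference (horizontal axis, vitamin C minus untreated) of every measured gene of the Hox family and of each list, with filled points for adjusted p under 0.05 and a bar at the median. The Hox genes lie between -0.34 and 0.48, and the fibroblast markers reach 1.83.

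Markers of other cell types were examined because fibroblasts and differentiated cells transcribe Hox genes. Among 19 markers of fibroblasts, 9 were higher past the test, 1 was lower and 9 missed it (52.6%, against 13.2% of all genes, with a median difference of 0.22), led by Acta2 (1.83), Lox (1.49), Dcn (1.06) and Tagln (1.03). Their summed linear signal was 3182 to 3241 untreated and 3576 to 3623 with vitamin C. Of the fibroblast markers, Col1a1, Col1a2 and Dcn were not at 0, a value these arrays do not give. They went from 6.50, 6.10 and 4.90 to 7.05, 6.57 and 5.96. The lowest difference of the 19 was that of Pdgfrb (-0.32), and 16 of the 19 were above 0. Among 12 markers of neuroectoderm, 3 were higher, 1 was lower (Stmn2, -0.57) and 8 missed the test (33.3%, median 0.15). The 3 higher ones were Fabp7 (1.24), Neurod1 and Tubb3. Among 12 markers of mesoderm, 1 was lower and 11 missed the test (8.33%, median 0.04). The summed neuroectoderm signal was 2217 to 2267 untreated and 1764 to 1907 with vitamin C. A linear sum is weighted to bright genes, and 8 of the 12 neuroectoderm differences were above 0. The mesoderm sum was 693.5 to 742.9 untreated and 665.7 to 686.4 with vitamin C. Of the 10 ES cell markers, 4 were higher (Nanog, Zfp42, Utf1 and Dppa3, by 0.25 to 0.30), none was lower and 6 missed the test (40%). Their summed signal was 12213 to 12567 untreated and 13437 to 13650 with vitamin C. The median signal of these 10 was 9.86, in the highest bin of signal, where 21.9% of all genes were called. The part of such cells in the differences of Hoxb5, Hottip, Meis2 and the other genes was not tested.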

How the data were processed

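RNA of mouse ES cells was measured on 6 Affymetrix arrays, 3 per group, with groups from the sample titles. Per the labels' protocols, total RNA was amplified with a whole-transcriptome kit and labelled with biotin. The values the authors deposited are on a log2 scale, inferred from their range, and RMA is named in the submitters' processing notes, with its software and version not given in the sources used here. RMA in general sets arrays to a common distribution, which hides a shift of every gene at once; the array medians ran from 5.52 to 5.60.

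Of 35557 probe sets, 21789 had 1 gene symbol, 1621 several and 12147 are unnamed here. All 37 Hox probe sets matched the reference gene table (GRCm38.p6) by gene ID. For genes with several probe sets the one with the highest mean was used. The fit used lmFit and eBayes of limma 3.58.1 (R 4.3.3) without covariates, was tested on simulated data, and p-values were adjusted over 19938 genes. The number of arrays limits the precision. The p-values weigh each mean difference against the spread between these cultures, which eBayes moderates using all genes.

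Named Hox genes were those called, those whose arrays did not overlap, the next 10 largest differences and the highest-mean gene of each cluster; up to 4 called genes were named per list. Other Hox genes given with values (Hoxa9, Hoxa13, Hoxb1, Hoxb6, Hoxb13, Hoxc9, Hoxd3, Hoxd4 and Hoxd9 among them), Nkx6-2, Mtf2 and other list genes were named after their values were seen. The members and lists were chosen with earlier results of these data known. The alternatives tried stand in the closing section.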

Additional observations from a re-analysis of the deposited data

How the results depend on the processing

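Alternatives changed the spread model, scaling, dim-gene filter, handling of probe sets, array weights, the block and the arrays included. The count of called Hox genes, 1 in the comparison as reported, was 3 with a trended and robust spread model (Hoxa10, Hoxb5 and Hoxb9), 2 with probe sets averaged (Hoxb5 and Hoxb9), 0 with equal array medians, 0 with every probe set tested and 0 to 2 with 1 array left out. With the filter on dim genes 13 Hox genes remained to be tested, Hoxb5 was not among them, and Hoxb9 was called. The 2623 called genes became 4151 with the trended and robust model and 1483 to 1721 with 1 array left out, where fewer arrays were fitted. The 19 called genes of the lists became 32 with the trended and robust model and 9 to 13 with 1 array left out. Centring moved the differences of all genes by -0.04 at the median, and higher genes made up 32.1% of calls in place of 43.7%; for the lists, 7 were higher and 10 lower in place of 12 and 7. Where no cause is given it was not tested.

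With the replicate number as a block, 1723 genes in all, 0 Hox genes and 10 genes of the lists were called. The numbers were not taken as pairing the arrays, since they are not stated to mark a shared batch. Across all genes, the deviations of same-numbered arrays from their group means correlated at 0.05, 0.01 and -0.02. Of the 37 Hox genes 13 changed sign with 1 array left out, and 3 (Hoxc9, Hoxc11 and Hoxd11) with equal array medians. Of the genes named by the rule, Hoxa4 was the one that changed sign, to -0.0071 without untreated replicate 1, and ran up to 0.12 without untreated replicate 2 (range of adjusted p over its alternatives 0.420 to 0.970 by limma). Hoxb5 was called in 4 of 12 alternatives, with differences of 0.40 to 0.62. The alternative with probe sets of several symbols was not run, because none held exactly 1 Hox symbol. Dim signals limit what these arrays can show for Hox genes.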
